A study of Mus musculus with 17 samples.

Results

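Enah, Cd24a, Cd81, Cpe, Procr, Ppm1l, Sgk1, Tjp1, Lypd6b and Fgl2 are 10 genes that differed between Foxp3+ and Foxp3- mouse CD4 T cells after culture. They were chosen by their difference between those sorted fractions on these arrays, so that difference is given as a description with no test. The 10 genes were among 18194 with a probe set named for 1 gene, and 21 of 45101 probe sets carried their names. Enah, Cd24a, Cd81, Cpe, Procr, Ppm1l and Sgk1 were higher in Foxp3+ cells, and Tjp1, Lypd6b and Fgl2 were lower.

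RNA from 17 Affymetrix arrays was measured in 8 groups, each array from 3 pooled male mice aged 6 to 10 weeks. In the co-culture, Foxp3- CD4 T cells from the spleen of C57BL/6 Foxp3/GFP reporter mice were grown for 5 days with dendritic cells at 10 T cells per dendritic cell, and GFP then divided them into Foxp3+ and Foxp3- cells. The dendritic cells came from the lamina propria (LP-DC; 2 Foxp3+ and 2 Foxp3- arrays), from the spleen with 100 nM retinoic acid (Sp-DC plus RA; 2 Foxp3+ arrays and 1 Foxp3- array), or from the spleen alone (Sp-DC; 2 Foxp3+ and 2 Foxp3- arrays). Every culture also received anti-CD3 at 1 ug/ml, TGFbeta at 0.6 ng/ml and IL-2 at 5 ng/ml, so no group lacked TGFbeta. In the memory experiment, CD44hi CD62L- CD25- CD4 T cells from C57BL/6 spleen and lymph nodes were kept 48 h with naive CD4 T cells, at 2 memory cells per naive cell, on anti-CD3/CD28 beads with IL-2 at 20 U/ml and TGFbeta at 10 ng/ml. These cells received 100 nM RA (3 MemoryRA arrays) or none (3 Memory arrays), and were sorted again by a congenic marker.

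Foxp3 is the transcription factor that defines regulatory T cells, and TGFbeta induces it in stimulated naive CD4 T cells. Retinoic acid, which gut dendritic cells make from vitamin A, is known to favour that induction. Sorting on a Foxp3 reporter after such a culture therefore divides cells that shared stimulus and medium. The 10 genes come from unrelated families. Enah (Mena) is an Ena/VASP protein that promotes actin filament growth, Cd24a encodes a heavily glycosylated surface protein held by a lipid anchor, Cd81 is a tetraspanin, and Procr is the endothelial receptor for protein C. Cpe, carboxypeptidase E, trims peptide hormone precursors, Ppm1l is a PP2C-type phosphatase and Sgk1 is a serum- and glucocorticoid-induced kinase. Tjp1 (ZO-1) is a tight junction scaffold, Lypd6b belongs to the Ly6/uPAR family, and Fgl2 is a fibrinogen-like protein that exists in secreted and membrane forms.

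In the RefSeq annotation of GRCm38.p6 the genes lie on 7 chromosomes, with Enah at chr1:181896384-182027556, Procr at chr2:155751125-155755478 and Lypd6b at chr2:49787340-49948849. Ppm1l lies at chr3:69316918-69560798, Fgl2 at chr5:21372673-21378386, Tjp1 at chr7:65296165-65527850 and Cd81 at chr7:143052750-143067930. Cpe lies at chr8:64592542-64693109, Cd24a at chr10:43579169-43584265 and Sgk1 at chr10:21882184-21999903. RefSeq windows of 250 bases before a transcription start were at hand for 6 of the 10 genes, 11 windows in all, 6 of them at Sgk1. They are shown for Fgl2 and Sgk1 because only these genes passed a test below, with capitals for letters searched on both strands. For Sgk1, 2 of its 6 windows are printed, both with a match. Its other windows, some of them without any match, are left out.
Fgl2, chr5:21372423-21372672, plus strand: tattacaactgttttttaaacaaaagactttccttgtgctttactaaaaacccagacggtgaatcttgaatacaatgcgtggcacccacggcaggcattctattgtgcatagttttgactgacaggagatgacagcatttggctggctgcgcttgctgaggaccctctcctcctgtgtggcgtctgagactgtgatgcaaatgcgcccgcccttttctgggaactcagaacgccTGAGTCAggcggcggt
Sgk1, chr10:21881934-21882183, plus strand: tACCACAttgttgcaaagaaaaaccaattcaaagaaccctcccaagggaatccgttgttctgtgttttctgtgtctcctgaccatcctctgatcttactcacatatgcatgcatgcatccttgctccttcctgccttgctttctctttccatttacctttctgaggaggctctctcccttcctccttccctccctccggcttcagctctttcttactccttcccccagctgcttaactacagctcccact
Sgk1, chr10:21985854-21986103, plus strand: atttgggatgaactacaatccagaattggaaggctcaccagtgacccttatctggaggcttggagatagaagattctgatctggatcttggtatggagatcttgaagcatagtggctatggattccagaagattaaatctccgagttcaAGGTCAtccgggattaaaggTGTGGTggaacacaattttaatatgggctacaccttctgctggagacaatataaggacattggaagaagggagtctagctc
The capitals in the Fgl2 window are TGANTCA, the AP-1 letters, found 16 to 10 bases before the start and in 6.7% of all 32851 windows of that length. The capitals in the upstream Sgk1 window are TGTGGT, the Runx letters, on the minus strand. The second Sgk1 window shown, before a start inside the gene, held TGTGGT and also AGGTCA, the letters bound by retinoic acid receptors, 101 to 96 bases before that start. Each of these motifs stood in 14.0% of all windows. That is a share per window, and a gene with 6 windows has more chances to hold a match. AP-1 letters also stood in the Procr window, AGGTCA letters in the Procr window and 2 Sgk1 windows, and GGAAAA, the NFAT core, in windows of Procr, Sgk1 and Tjp1, against 20.4% of all windows. TGTTTAC, a forkhead letter string, was in none of the 11 windows and in 3.2% of all. A match is a run of letters, and no binding was measured.

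Values below are log2 of the deposited intensity, on which array medians lay between 5.88 and 5.98; a value near or under the median is close to background. Each gene is given by the probe set with its highest mean level. Of the CD4 T cell markers, 7 of 7 with a probe set were above the array median on every array, and 1 of them, Cd3g, was lower in Foxp3+ cells in all 5 pairs of arrays that shared a culture and number. Of 12 regulatory T cell markers above the median on at least 2 co-culture arrays, 10 were higher in Foxp3+ cells in every one of these 5 pairs, Il2ra, Ctla4 and Gpr83 among them. The Foxp3 probe set itself did not follow the sort, at 4.09 to 4.53 on Foxp3+ arrays and 3.88 to 4.44 on Foxp3- arrays, under every array median. It stood at 7.79 to 9.14 on MemoryRA and 7.08 to 8.26 on Memory arrays. With the same limit on level, no marker of macrophages, B cells, endothelial or erythroid cells was higher, or lower, in all 5 pairs; Pecam1, an endothelial marker under the median on every array, was higher in all 5. Of 9 dendritic cell markers above the median on at least 2 co-culture arrays, H2-Ab1 and Ly75 were higher in Foxp3+ cells in all 5 pairs and Itgax was under the median on every array. The summed dendritic cell markers were 1994 to 2363 in LP-DC Foxp3+ cells against 1496 to 1942 in LP-DC Foxp3- cells, 2070 to 3169 against 2975 with Sp-DC plus RA, and 2406 to 3483 against 2156 to 3300 with Sp-DC. Among CD8 T and NK cell markers, Klrg1 was higher and Klrk1 lower in Foxp3+ cells in all 5 pairs. The part of these markers in the values below was not tested. In a bulk sample, fewer cells of a type and less RNA per cell cannot be told apart.

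**Figure D1:**
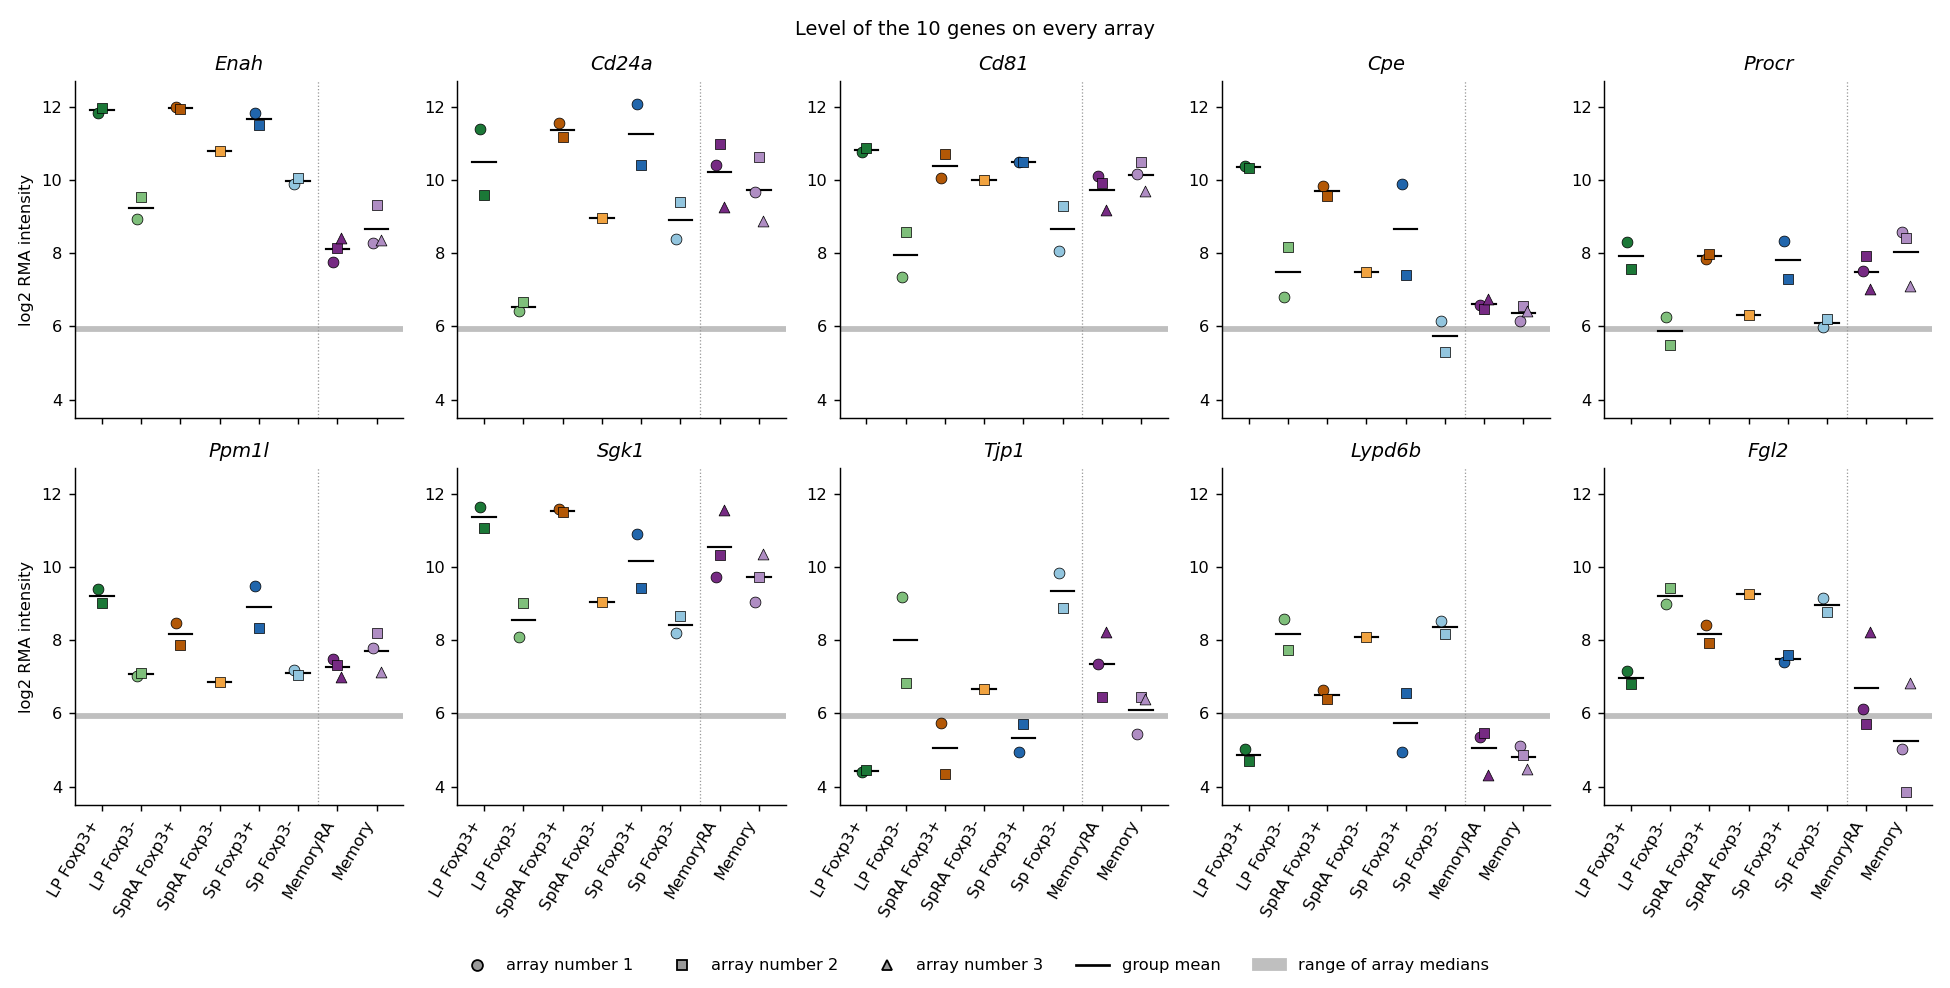
Log2 RMA intensity (vertical axis) of each of the 10 genes on all 17 arrays, by group (horizontal axis; LP, SpRA and Sp stand for the LP-DC, Sp-DC plus RA and Sp-DC cultures); symbols give the array number, black bars the group mean, and the grey band the range of array medians. Enah was between 11.49 and 12.00 on all 6 Foxp3+ arrays and between 8.92 and 10.79 on the 5 Foxp3- arrays, while Tjp1 lay under the grey band on every Foxp3+ array.

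The 7 genes that were higher in Foxp3+ cells were so in all 5 same-numbered pairs. Enah measured 11.84 and 11.96 in LP-DC Foxp3+ cells, against 8.92 and 9.52 in LP-DC Foxp3- cells. With Sp-DC plus RA it measured 12.00 and 11.92 in Foxp3+ cells, against 10.79 on the Foxp3- array. With Sp-DC it measured 11.83 and 11.49 in Foxp3+ cells, against 9.88 and 10.04 in Foxp3- cells. The fractions did not overlap, and the Foxp3+ arrays spanned far less than the Foxp3- arrays. Paired differences ran from 1.14 to 2.92, a median fold of 3.88. All 5 other Enah probe sets also had a positive median, but several lay near or at background level, and 1 of those was lower in 1 of 5 pairs. The further probe set above the array median on all 17 arrays had a median difference of 1.60.

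Cd24a, the heat-stable antigen long used to stage developing T and B cells, had the widest paired range of the genes that were higher, 1.00 to 4.98. It measured 11.40 and 9.59 in LP-DC Foxp3+ cells, against 6.42 and 6.66 in LP-DC Foxp3- cells, the lowest Cd24a values on any array. It measured 11.54 and 11.18 with Sp-DC plus RA in Foxp3+ cells, against 8.95 in Foxp3- cells. It measured 12.08 and 10.40 with Sp-DC in Foxp3+ cells, against 8.40 and 9.40 in Foxp3- cells. The Foxp3+ arrays numbered 2 sat below those numbered 1 in every culture, yet each fraction stayed apart from the other. Both further Cd24a probe sets were higher in 5 of 5 pairs.

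Cd81, a tetraspanin that organises other receptors in the membrane, measured 10.77 and 10.86 in LP-DC Foxp3+ cells, against 7.33 and 8.59 in LP-DC Foxp3- cells. It measured 10.05 and 10.71 with Sp-DC plus RA in Foxp3+ cells, against 10.00 in Foxp3- cells. It measured 10.49 and 10.48 with Sp-DC in Foxp3+ cells, against 8.06 and 9.27 in Foxp3- cells. The Foxp3- cells with Sp-DC plus RA thus stood close to Foxp3+ cells. The Cd81 difference there was 0.38 by group means and 0.71 in the same-numbered pair, against 2.86 with LP-DC.

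Cpe, which removes basic residues from the ends of peptide precursors, was near or under background in some Foxp3- cells. It measured 10.39 and 10.32 in LP-DC Foxp3+ cells, against 6.79 and 8.17 in LP-DC Foxp3- cells, and 9.84 and 9.57 with Sp-DC plus RA in Foxp3+ cells, against 7.48 in Foxp3- cells. With Sp-DC it measured 9.89 and 7.41 in Foxp3+ cells, against 6.15 and 5.30 in Foxp3- cells. The second Sp-DC Foxp3+ array therefore stood far below the first, and under the Sp-DC plus RA Foxp3- array and 1 LP-DC Foxp3- array. Here alone among the genes that were higher, the fractions overlapped across cultures, though not within one. The other Cpe probe set, of a kind prone to cross-hybridisation, was higher in 3 pairs and lower in 2.

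Procr, the receptor that presents protein C for activation on endothelium, measured 8.30 and 7.56 in LP-DC Foxp3+ cells, against 6.25 and 5.50 in LP-DC Foxp3- cells. It measured 7.84 and 7.98 with Sp-DC plus RA in Foxp3+ cells, against 6.30 in Foxp3- cells, and 8.34 and 7.31 with Sp-DC in Foxp3+ cells, against 5.98 and 6.20 in Foxp3- cells. Every Foxp3+ array was well above the array median, whereas the Foxp3- arrays lay close to it. Of 11 endothelial and stromal markers with a probe set, 9 or more in each co-culture group were under the median on every array of that group; their part in the Procr values was not tested. Ppm1l, a phosphatase of the PP2C family, measured 9.40 and 9.01 in LP-DC Foxp3+ cells, against 7.03 and 7.11 in LP-DC Foxp3- cells. With Sp-DC plus RA it measured 8.47 and 7.86 in Foxp3+ cells, against 6.85 in Foxp3- cells, and with Sp-DC 9.47 and 8.34 in Foxp3+ cells, against 7.18 and 7.04 in Foxp3- cells. Its Foxp3- arrays were the tightest among the 10 genes. Of the further Ppm1l probe sets, one was higher in 5 of 5 pairs and the other in 4 of 5.

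Sgk1, a kinase that regulates sodium channels and, in T cells, helper cell fate, measured 11.64 and 11.07 in LP-DC Foxp3+ cells, against 8.08 and 9.01 in LP-DC Foxp3- cells. It measured 11.59 and 11.49 with Sp-DC plus RA in Foxp3+ cells, against 9.04 in Foxp3- cells. It measured 10.90 and 9.44 with Sp-DC in Foxp3+ cells, against 8.19 and 8.66 in Foxp3- cells. The smallest of the 5 paired differences, 0.78, came from the second Sp-DC pair, and the largest, 3.55, from the first LP-DC pair.

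Of the genes that were lower in Foxp3+ cells, Tjp1 is a scaffold that ties tight junction proteins to actin. It measured 4.40 and 4.47 in LP-DC Foxp3+ cells, against 9.17 and 6.83 in LP-DC Foxp3- cells. It measured 5.75 and 4.34 with Sp-DC plus RA in Foxp3+ cells, against 6.67 in Foxp3- cells. It measured 4.95 and 5.72 with Sp-DC in Foxp3+ cells, against 9.84 and 8.87 in Foxp3- cells. Every Foxp3+ array lay under the array median, so the paired log2 differences of -4.89 to -2.33 run against background-level values. Among 10 epithelial markers, Cdh1 was lower and Epcam higher in Foxp3+ cells in all 5 pairs. The summed epithelial markers were lower in Foxp3+ cells in each culture, at 397 to 430 against 489 to 596 in Foxp3- cells with LP-DC, 575 to 601 against 658 with Sp-DC plus RA, and 503 to 575 against 693 to 753 with Sp-DC. Cdh1 carried that gap, since without it the sums were 341 to 369 in Foxp3+ against 335 to 342 in Foxp3- cells with LP-DC, 438 to 468 against 378 with Sp-DC plus RA, and 375 to 388 against 353 to 363 with Sp-DC. At least 7 of the 10 were under the median on every co-culture array, Krt8 among them, and their part in the Tjp1 values was not tested.

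Lypd6b, whose family holds receptor-like proteins with a three-finger fold, measured 5.03 and 4.71 in LP-DC Foxp3+ cells, against 8.57 and 7.75 in LP-DC Foxp3- cells. It measured 6.64 and 6.39 with Sp-DC plus RA in Foxp3+ cells, against 8.09 in Foxp3- cells, and 4.95 and 6.55 with Sp-DC in Foxp3+ cells, against 8.53 and 8.17 in Foxp3- cells. The Foxp3- arrays lay together whatever the culture, and the Foxp3+ arrays spread. Only 3 of the 6 Foxp3+ arrays had Lypd6b above the array median, so that spread and the differences run partly against background-level values. Fgl2, reported elsewhere as an immunoregulatory product of regulatory T cells, was lower in Foxp3+ cells here. It measured 7.15 and 6.80 in LP-DC Foxp3+ cells, against 8.99 and 9.41 in LP-DC Foxp3- cells, and 8.42 and 7.91 with Sp-DC plus RA in Foxp3+ cells, against 9.25 in Foxp3- cells. With Sp-DC it measured 7.40 and 7.58 in Foxp3+ cells, against 9.14 and 8.78 in Foxp3- cells.

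**Figure D2:**
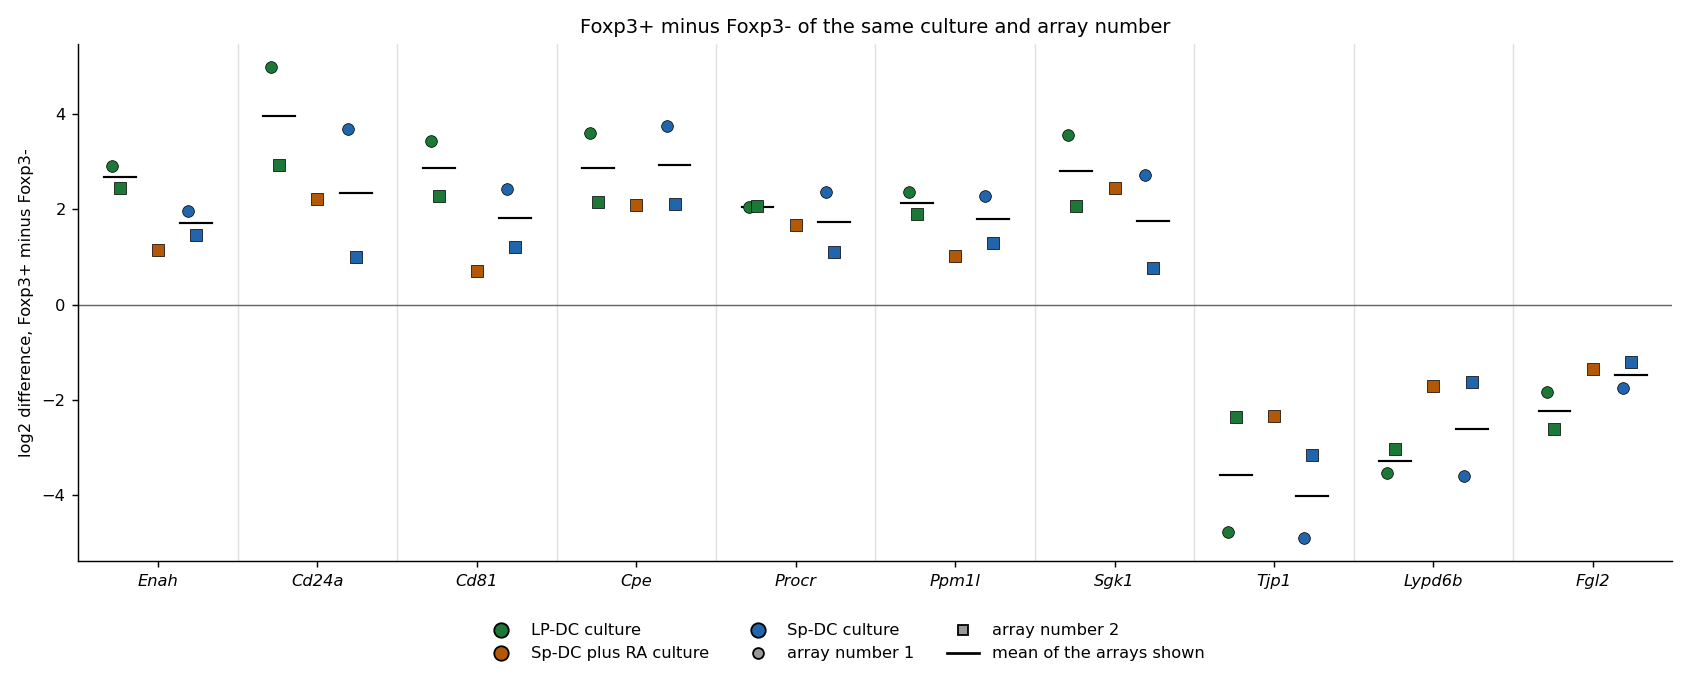
Log2 difference between Foxp3+ and Foxp3- arrays of the same number (vertical axis) for each gene (horizontal axis), coloured by culture; symbols give the array number and black bars the mean where 2 pairs exist. All points of the 7 genes on the left lie above 0 and all points of Tjp1, Lypd6b and Fgl2 below it, and Cd24a spans 1.00 to 4.98.

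By group means, the difference between fractions was largest with LP-DC for 8 of the 10 genes, the exceptions being Cpe and Tjp1, which differed most with Sp-DC. It was smallest with Sp-DC plus RA for 8, and with Sp-DC for Cd24a and Sgk1. The array number moved with this order. Pairs numbered 1 differed more than pairs numbered 2 for 8 genes with LP-DC and for all 10 with Sp-DC, while Sp-DC plus RA had only a pair numbered 2. Among the pairs numbered 2, the difference was largest with LP-DC for 8 genes, and smallest with Sp-DC plus RA for 5 genes and with Sp-DC for the other 5. Differences between cultures were not tested, because the genes were chosen on this contrast.

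Among the 8 groups, Enah had its highest mean in Foxp3+ cells with Sp-DC plus RA, 11.96 ± 0.05, then in LP-DC, 11.90 ± 0.09, and Sp-DC Foxp3+ cells, 11.66 ± 0.24 (SD, n = 2 each). The first and second of these groups overlapped, and the lower LP-DC array, at 11.84, stood beside the higher Sp-DC array, at 11.83. Enah was lowest in the memory cells, at 8.10 ± 0.34 in MemoryRA and 8.65 ± 0.58 in Memory (SD, n = 3 each), under every co-culture group mean. Procr ran the other way. Its highest mean was in Memory cells, 8.04 ± 0.81 (SD, n = 3), overlapping the Foxp3+ groups at 7.82 to 7.93. The Fgl2 means of both memory groups were under all co-culture group means, although the third MemoryRA array, at 8.22, was above 5 of the 6 Foxp3+ arrays, and Cpe in memory cells lay within the range of Foxp3- group means. Across the genes, MemoryRA means fell within the Foxp3+ range for 2 genes, within the Foxp3- range for 3, between the ranges for 3 and below both for 2. Memory means fell between the ranges for 5 genes, below both for 3, above both for 1 and within the Foxp3- range for 1. The experiments differed in cells, stimulus, time and TGFbeta dose.

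Whether RA moved these genes outside the contrast that chose them was tested with limma across all genes, at an adjusted p threshold of 0.05. The tests used the group means alone and, as a second fit, a block for the array number, because same-numbered arrays deviated together. Tests within the co-culture share arrays with the contrast that chose the genes. Nothing in the labels says that array numbers mark separate experiments, so the p-values measure the spread between arrays.

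In memory cells, Sgk1 was called higher with RA in the blocked fit, and Fgl2 was higher in every same-numbered pair. Fgl2 measured 6.12, 5.71 and 8.22 in MemoryRA cells, against 5.02, 3.87 and 6.83 in Memory cells. Fgl2 was over the array median on 2 MemoryRA arrays and 1 Memory array. It reached the 2 arrays needed for a test only with MemoryRA, where it was higher, so its size runs partly against background-level values. For that reason its call in memory cells, given below, is not read. Both groups contain values under the array median and they overlap, since the arrays numbered 3 stood highest in each, yet each RA array was above its same-numbered partner. The differences were 1.10, 1.84 and 1.39. The log2 difference was 1.44 ± 0.16 (SE, n = 3 pairs) with limma's blocked fit, adjusted p 0.000864, and 1.44 ± 0.92 with adjusted p 1.00 without the block. A further Fgl2 probe set lay under the array median on all 17 arrays, so its differences are not read.

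Sgk1 measured 9.72, 10.33 and 11.55 in MemoryRA cells, against 9.05, 9.74 and 10.36 in Memory cells. The groups overlapped, and again the arrays numbered 3 were highest. Paired differences were 0.67, 0.59 and 1.19, and the blocked limma fit gave 0.82 ± 0.15 with adjusted p 0.0141 (SE, n = 3 pairs), against adjusted p 1.00 without the block. Without the arrays numbered 3, the blocked Sgk1 difference was 0.63 with limma adjusted p 0.176, and that of Fgl2 1.47 with limma adjusted p 0.0240. In that fit, both Memory arrays and the second MemoryRA array had Fgl2 under the array median. The Fgl2 call there is therefore not read as upheld.

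Of 9 genes tested in memory cells, the fit without the block called 0, against 0.0829% of all genes tested. It gave 1 of the 9 an unadjusted p under 0.05, as it did 495 of all 12062 genes. The blocked fit called 2, Sgk1 and Fgl2, both higher, against 4.94% of all genes, and the Fgl2 call is not read. That fit gave 8 of the 9 an unadjusted p under 0.05, as it did 1898 of all 12062 genes. Lypd6b was not tested because it lay under the array median on every memory array. The median absolute difference was 0.55 for the 9 genes and 0.13 for all genes. Tjp1 measured 7.36, 6.44 and 8.23 in MemoryRA cells, against 5.43, 6.46 and 6.40 in Memory cells. It was thus higher in 2 pairs and level in the other, a difference of 1.25 ± 0.32 that missed the threshold in the blocked fit (limma adjusted p 0.0627). Cd24a was higher in 3 of 3 pairs, by 0.36 to 0.75, and also missed it (0.49 ± 0.14, limma adjusted p 0.0898). Both further Cd24a probe sets, above the array median on every memory array, were higher in only 2 of 3 pairs, with medians of 0.06 and 0.50.

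The other 5 genes missed the threshold in both fits. Ppm1l, Procr and Cd81 were lower with RA in 3 of 3 pairs, with differences of -0.89 to -0.14 for Ppm1l, -1.08 to -0.08 for Procr and -0.57 to -0.07 for Cd81. Both further Ppm1l probe sets were lower in only 2 of 3 pairs, with highest differences of 0.06 and 0.19. Enah was lower in 2 of 3 pairs and Cpe higher in 2 of 3. Beside these values, the summed dendritic cell markers were 1212 to 1348 in MemoryRA cells, against 1998 to 2311 in Memory cells. Ly75 alone carried that gap, and without it the sums overlapped, at 864 to 1109 in MemoryRA and 895 to 1314 in Memory cells. Summed epithelial markers were 448 to 551 in MemoryRA against 348 to 438 in Memory cells, and without Cdh1 they overlapped, at 397 to 479 in MemoryRA and 334 to 424 in Memory cells. Summed CD4 T cell markers were 9410 to 10001 in MemoryRA against 7635 to 9356 in Memory cells, while those of B cells overlapped. Their part in the memory results was not tested.

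**Figure D3:**
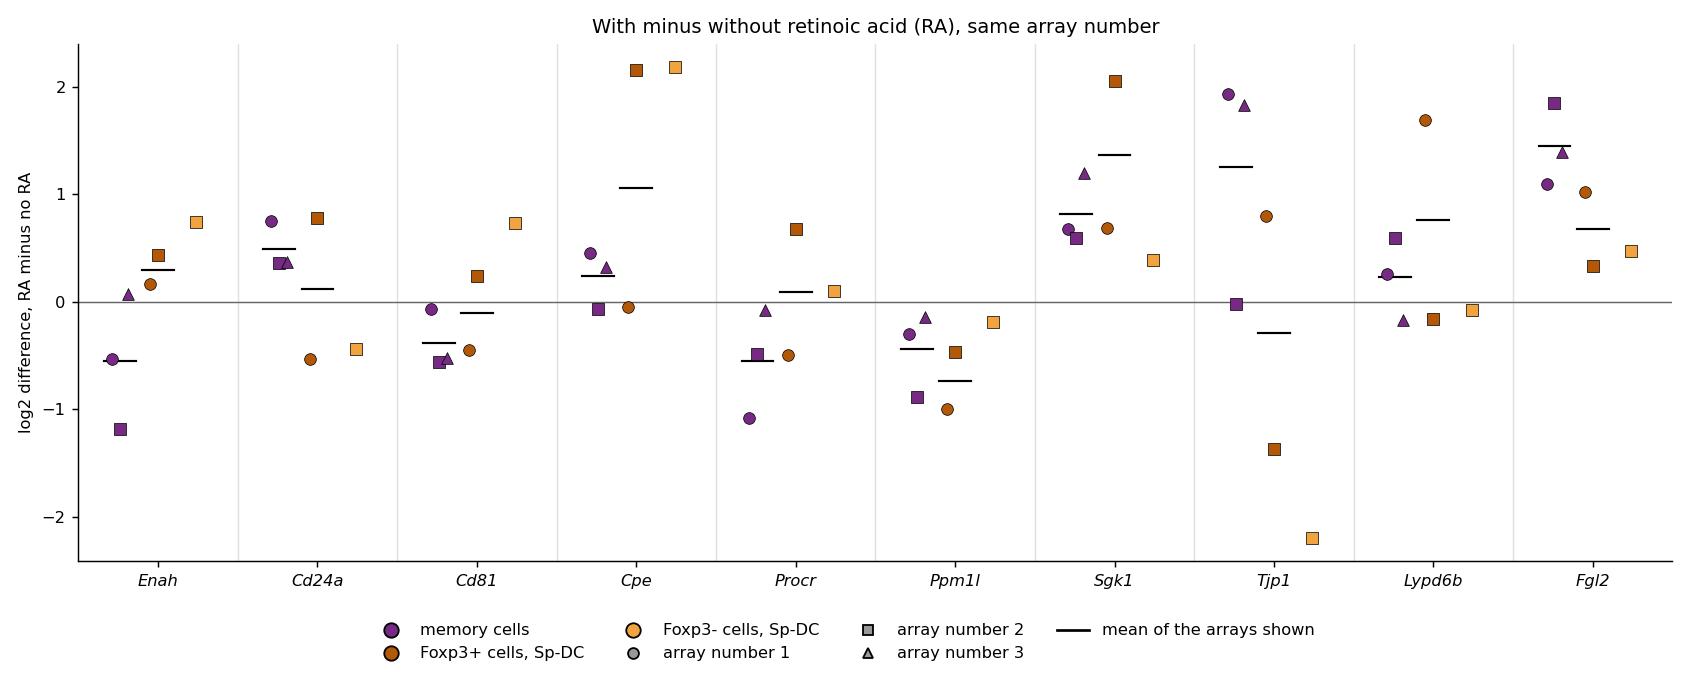
Log2 difference between arrays with and without RA of the same number (vertical axis) for each gene (horizontal axis), in memory cells, Foxp3+ cells and Foxp3- cells with Sp-DC; symbols give the array number and black bars the mean. Fgl2 in memory cells lies at 1.10, 1.84 and 1.39, and Sgk1 and Fgl2 are above 0 at every point.

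Tjp1 lay under the array median on all 6 Foxp3+ arrays and was tested only because of its Foxp3- values, so its results within Foxp3+ cells are not read. In Foxp3+ cells with Sp-DC, RA called 0 of the other 9 genes in either fit. All genes tested had 0.101% called without the block and 1.12% with it. Fgl2 was higher with RA in both pairs, by 1.02 and 0.33, and Sgk1 by 0.68 and 2.05. Their blocked differences were 0.67 ± 0.22 for Fgl2 and 1.37 ± 0.44 for Sgk1, each with limma adjusted p 0.228. Cpe differed by 2.16 in the pair numbered 2 and by -0.05 in the pair numbered 1, and the Lypd6b difference also had a different sign in each pair. In Foxp3- cells the RA group was 1 array, assumed in the fit to vary like the other groups, so a missing call says little; 0 of 10 were called in either fit, against 0.00844% of all genes without the block and 0.262% with it. The largest differences in the pair numbered 2 were 2.18 for Cpe and -2.20 for Tjp1, and Fgl2 and Sgk1 were higher by 0.47 and 0.38. Without the block, 2 of the 10 genes had an unadjusted p under 0.05 in each of these comparisons. Of all 11846 genes, 570 did in Foxp3+ and 293 in Foxp3- cells. With the block, 3 of the 10 did in Foxp3+ and 4 in Foxp3- cells, against 1454 and 718 of all genes.

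The RA difference in memory cells minus that in Foxp3+ cells was tested in one fit over all 17 arrays, for 9 genes, of which Tjp1 is not read. None passed without the block (0.0525% of all genes called) or with it (1.41% of all genes called). An unadjusted p under 0.05 was found for 0 and 2 of them, against 292 and 1413 of all 11432 genes. The Fgl2 difference of differences was 0.77 ± 0.29 with limma adjusted p 0.266 in the blocked fit. That of Sgk1 was -0.55 ± 0.51 with limma adjusted p 0.741.

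The source of the dendritic cells was compared within each sorted fraction. Between LP-DC and Sp-DC, 0 of 9 genes (without Tjp1) were called in either fit in Foxp3+ cells, against 0% of all genes without the block and 1.81% with it. In Foxp3- cells 0 of 10 were also called, against 0% and 0.861%. In Foxp3+ cells 1 gene had an unadjusted p under 0.05 without the block and 3 with it, against 947 and 2245 of all 11846 genes. In Foxp3- cells 3 did without the block and 5 with it, against 794 and 1986 of all genes. Sgk1 was higher with LP-DC in both Foxp3+ pairs, by 0.73 and 1.64, and Cpe by 0.50 and 2.91. In Foxp3- cells Cd24a was lower with LP-DC in both pairs, at -1.98 and -2.74, with a blocked difference of -2.36 ± 0.57 (SE, n = 2 pairs) that missed the threshold (limma adjusted p 0.0770, against 0.514 without the block). Enah was lower there too, at -0.96 and -0.52, with a blocked difference of -0.74 ± 0.20 (limma adjusted p 0.0958).

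Between LP-DC and Sp-DC plus RA, Fgl2 was lower with LP-DC in Foxp3+ cells. It measured 7.15 and 6.80 with LP-DC, against 8.42 and 7.91 with Sp-DC plus RA, so the groups did not overlap. The differences of the pairs were -1.27 and -1.11, and limma gave -1.19 ± 0.22 (SE, n = 2 pairs) with adjusted p 0.0286 in the blocked fit and 0.220 without the block. The blocked fit without any one of the 4 arrays compared gave -0.95 to -1.43 and did not keep the call (adjusted p 0.0531 to 0.293), nor did it without either Sp-DC Foxp3- array (adjusted p 0.0580). In all, 1 of the 9 genes other than Tjp1 was called with the block, against 1.87% of all genes, and 0 without it, against 0.0929%. An unadjusted p under 0.05 was found for 3 of them in each fit. Of all 11846 genes, 680 had one without the block and 1653 with it. Ppm1l was higher with LP-DC in both pairs, by 0.93 and 1.15, and missed the threshold (1.04 ± 0.24, limma adjusted p 0.0706 in the blocked fit). Lypd6b was lower in both, at -1.60 and -1.68, with its LP-DC values under the array median.

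**Figure D4:**
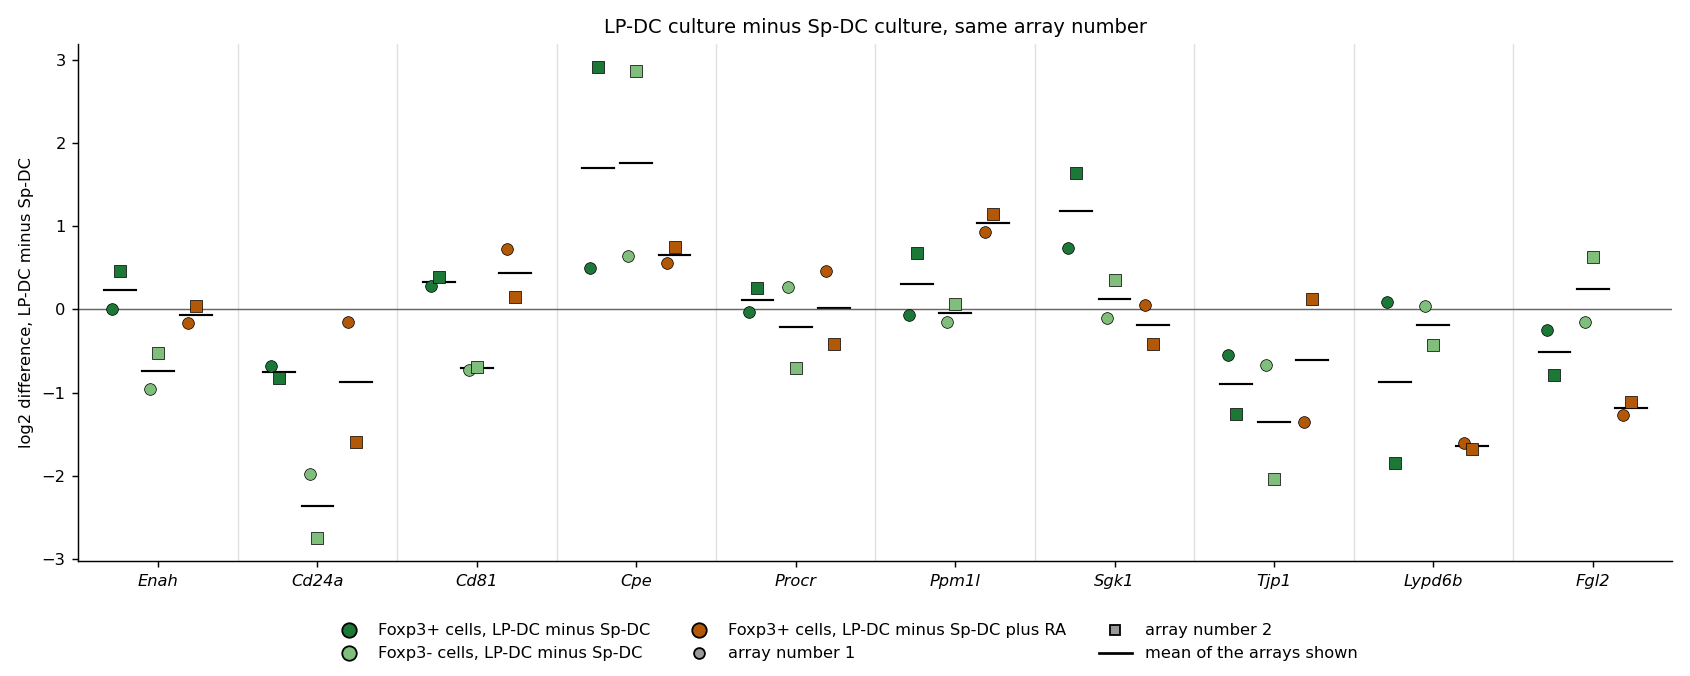
Log2 difference between LP-DC and Sp-DC cultures of the same array number (vertical axis) for each gene (horizontal axis), in Foxp3+ and Foxp3- cells, and between LP-DC and Sp-DC plus RA in Foxp3+ cells; symbols give the array number and black bars the mean. Cd24a in Foxp3- cells lies at -1.98 and -2.74, and Fgl2 against Sp-DC plus RA at -1.27 and -1.11.

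Relatives and partners of the 10 genes, 137 in 10 lists, showed how far the families moved with their members, and 124 had a probe set. The lists were chosen with earlier results of these data known, so their shares called, here and with RA, are a description beside those of all genes. Between Foxp3+ and Foxp3- cells, 94 could be tested, and the fit without the block called 1, Ptgfrn, a partner of Cd81 (0.88 ± 0.13, limma adjusted p 0.0277), or 1.06% against 0.92% of all genes. The blocked fit called 7, or 7.45% against 4.79% of all genes, each in the same direction in 5 of 5 pairs. Ptgfrn and the tetraspanin Cd82 (0.68 ± 0.12) were higher among 16 tetraspanins and partners tested. Pros1, protein S, was higher by 0.75 ± 0.12, Phlpp1, a phosphatase that acts on AKT, by 0.76 ± 0.13, and Nedd4l, a ubiquitin ligase phosphorylated by SGK1, by 0.62 ± 0.13. Evl, the Ena/VASP relative of Enah, was lower (-0.50 ± 0.10) while Enah was higher, and Fcgr3, an Fc receptor of a kind that binds Fgl2, was lower (-1.25 ± 0.21). The median difference over the 94 was 0.01 without the block and 0.02 with it.

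With RA in memory cells, 95 of these relatives were tested. The fit without the block called 1, Ndrg1, a substrate of SGK1, which was lower (-2.57 ± 0.23, limma adjusted p 0.0294), or 1.05% of the relatives against 0.0829% of all genes. The blocked fit called 8, or 8.42% against 4.94% of all genes, each moving one way in 3 of 3 pairs. Evl was higher by 1.67 ± 0.19, Cpm, a membrane carboxypeptidase, by 1.54 ± 0.14, Ly6e by 0.90 ± 0.14, the thrombin receptor F2r by 0.86 ± 0.13 and the phosphatase Ppm1k by 0.67 ± 0.15. Ndrg1, Ndrg2 (-0.95 ± 0.18) and the claudin Cldn12 (-0.82 ± 0.14) were lower. Of the other 15 genes tested in the SGK1 list, Ndrg3 among them (-0.07), none was called.

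The genes whose levels were most like each member over the 17 arrays are given as a description, since the points share groups and array numbers. The members were also chosen by their sort difference on these arrays, so like or opposite levels among members follow partly from the choice. For Enah it was Elovl6 (Pearson r = 0.94), for Sgk1 the regulatory T cell marker Gpr83 (r = 0.94), for Fgl2 the TGFbeta receptor Tgfbr2 (r = 0.93), and for Cpe Stxbp6 (r = 0.92). Tjp1 was most like Cxcr6 (r = 0.92) and Lypd6b most like 4930486L24Rik and Gzma (r = 0.92 and 0.91). Cd24a and Cd81 were both most like Hemk1 (r = 0.87 and 0.89), and Cd24a next like Procr and Cd81 (r = 0.82 each). Procr was most like Usp27x (r = 0.89) and Ppm1l most like She (r = 0.86). Among the members themselves, Cd81 and Tjp1 ran most strongly opposite (r = -0.86), and Enah, which is low in memory cells, was only weakly like Procr (r = 0.17).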

How the data were processed

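The deposited table holds 1 intensity per probe set and array on a linear scale, which per the labels the authors computed with RMA in GenePattern from Affymetrix M430v2 scans of twice-amplified RNA. No source used here gives the RMA version or says if the 17 arrays were normalized as one set. Log2 was taken with no pseudocount. Of 45101 probe sets, 34958 were annotated to 1 gene, 932 to several and 9211 to none; a gene was represented by its probe set of highest mean, and those ending in _x_at were passed over where another existed. A gene was tested in an experiment where 2 or more of its arrays put it over the array median, 11846 in the co-culture, 12062 in memory cells and 11432 in both.

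Groups came from the sample titles and the sort after culture. limma 3.58.1 (R 4.3.3) was fitted with a mean per group and, as an alternative, with the array number of the labels as a block, and p-values were adjusted by Benjamini-Hochberg across every gene in the fit, at 0.05. The pairing comes from the number alone: same-numbered arrays deviated together from their group means (r = 0.45 to 0.75 in 10 co-culture pairs of groups, 0.65 to 0.94 for the 3 memory numbers), so blocked values are printed. The block left 4 residual degrees of freedom in the co-culture and 2 in memory cells. The fits were tested on simulated data. Members and gene lists were chosen with earlier results of these data known. Genes named in the report are all 10 members, the listed relatives called in either fit, and for each member the genes of highest Pearson r. The alternatives tried were median centring, quantile normalization, no filter, a filter at the 60th percentile, log2(value + 32), the mean of all probe sets, each probe set alone, a trend and robust variance model, the block, and leaving out each array. With each probe set alone, only the representative probe set was counted as its gene. The number of arrays limits the precision.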

Additional observations from a re-analysis of the deposited data

How the results depend on the processing

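Without the replicate block, none of the 10 genes was called in any comparison under the other settings, with arrays left out included (0 each). The replicate block called 2 in memory cells, of which Fgl2 is not read, and 1 for LP-DC over Sp-DC plus RA in Foxp3+ cells. It raised the relatives called to 7 between Foxp3+ and Foxp3- cells and 8 with RA in memory cells. No other call of the 10 genes changed with it. Relatives called were 2 between fractions and 0 in memory cells after quantile normalization, and 0 in both with the mean of all probe sets. Leaving out one array, with or without the block (the blocked ones chosen after seeing the data), gave 0 to 4 of the 9 genes tested for RA in memory cells. In the co-culture it left at most 1 array in a group. Calls there changed with the array left out and are not counted here. Relatives ranged from 0 to 12 in memory cells. The share of all genes called in these fits was not counted, so the counts are a description only. With the block and without both memory arrays numbered 3, 1 of the 9 genes tested and 3 relatives were called, again with no share of all genes counted. That gene was Fgl2, which was under the array median on most arrays left in that fit. With 1 residual degree of freedom left, blocked memory fits with an array left out are poorly determined. No value recomputed for these results changed sign. Single probe sets did differ from the representative ones: in the Sp-DC plus RA pair, Foxp3+ minus Foxp3- was -0.28 for 1 Ppm1l and -0.17 for 1 Cpe probe set, and 1 Enah probe set had a median of 0.40 with RA in memory cells. The mean of all probe sets reduced the Foxp3+ minus Foxp3- difference of Cpe to 1.48, Enah to 1.06, Ppm1l to 0.94 and Fgl2 to -1.19; the averaged probe sets include those at background. RA in Foxp3- cells and the average over the 3 cultures had no value without the single Sp-DC plus RA Foxp3- array.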
